A study of Mus musculus with 4 samples.

Results

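The collagen genes are described here in tumours grown in mice from MC38b cells, MC38 being a mouse colon carcinoma line, by droplet single-cell RNA sequencing with unique molecular identifiers (UMIs, which count captured RNA molecules). Members were chosen by name: of 32285 gene rows, 44 had a symbol made of Col, 1 or 2 digits, the letter a and 1 digit. The 4 libraries came from 1 group given anti-PD-1 plus anti-TL1A (the combination, 1 library), 1 group given anti-PD-1 (1 library) and 1 group given saline (PBS, 2 libraries, PBS 1 and PBS 2). PD-1 is an inhibitory receptor of T cells, and TL1A is a cytokine of the TNF family. All animals carried MC38b tumours, which were taken 24 h after the second dose. The labels give neither strain nor age. They give 2 saline and 4 treated animals that were pooled before sorting, without saying whether a PBS library is 1 animal or a pool. In comparisons between treatments, p-values thus rest only on the spread between the PBS libraries, which may be technical. That spread was drawn towards a level shared by all genes. Cells of a CD45-positive CD3-positive, a CD45-positive CD3-negative and a double-negative gate were remixed in 9 to 9 to 2 parts. The double-negative gate, named in the labels for tumour and stromal cells, is the one in which collagen was counted. It was taken as barcodes with at most 1 UMI of Ptprc (the CD45 gene) and at least 10000 UMIs, called CD45-negative barcodes.

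Collagens are secreted or membrane-bound proteins of 3 chains wound into a triple helix. Types I, III and V are fibrillar collagens and form the load-bearing fibrils of connective tissue, with type V at the fibril core. Type IV forms the sheet of basement membranes, type VI forms beaded filaments beside cells, and types XII, XIV and XVI decorate fibrils. In tumours, fibroblasts are the best-known source of fibrillar collagen, and fibroblasts usually express both chains of type I collagen, Col1a1 and Col1a2. Carcinoma cells can also make collagen.

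Several members sit beside each other in the genome (GRCm38, GENCODE M21). Col3a1 (chr1:45311538-45349706, + strand) and Col5a2 (chr1:45374321-45503282, - strand) converge with 24615 bases between them. Col6a2 (chr10:76595762-76623630) and Col6a1 (chr10:76708792-76726168) lie on the - strand, 85162 bases apart. Col4a1 (chr8:11198423-11312826, - strand) and Col4a2 (chr8:11312805-11449287, + strand) diverge with overlapping 5′ ends. Col1a1 lies at chr11:94936224-94953042 on the + strand, and Col14a1 at chr15:55307750-55520803 on the + strand. Promoter sequences from RefSeq (GRCm38.p6) matched 35 of the 44 members. The 250 bases before the start site are shown for 3 members that were lower in both treated libraries, Col3a1 (chr1:45311288-45311537, + strand), Col5a1 (chr2:27886175-27886424, + strand) and Col6a2 (chr10:76623631-76623880, - strand), with capitals marking TATAAA.
Col3a1: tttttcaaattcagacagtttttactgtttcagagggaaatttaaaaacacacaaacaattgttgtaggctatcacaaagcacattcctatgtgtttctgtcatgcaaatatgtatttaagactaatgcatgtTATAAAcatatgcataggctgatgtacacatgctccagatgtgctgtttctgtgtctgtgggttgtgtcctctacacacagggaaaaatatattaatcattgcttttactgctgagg
Col5a1: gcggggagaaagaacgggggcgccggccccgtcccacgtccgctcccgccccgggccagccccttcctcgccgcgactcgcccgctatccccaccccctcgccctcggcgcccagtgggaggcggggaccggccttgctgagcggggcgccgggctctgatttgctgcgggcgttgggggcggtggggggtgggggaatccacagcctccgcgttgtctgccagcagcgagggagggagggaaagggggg
Col6a2: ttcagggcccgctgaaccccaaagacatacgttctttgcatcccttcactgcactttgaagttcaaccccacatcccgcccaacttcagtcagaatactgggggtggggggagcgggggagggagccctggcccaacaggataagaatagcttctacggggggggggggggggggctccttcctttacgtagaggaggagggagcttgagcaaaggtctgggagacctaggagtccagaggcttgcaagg
TATAAA, searched on both strands, began 117 bases before the Col3a1 start and was in 5 of 38 member promoters, against 12.4% of 32851 promoters of the same length. CCAAT, also searched on both strands and sharing no bases with TATAAA, was in 13 of 38 member promoters, against 33.9% of all, and in none of the windows shown. These matches describe the letters only.

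The combination, anti-PD-1, PBS 1 and PBS 2 libraries held 11177, 13231, 6732 and 6448 barcodes, with 82816801 to 142600208 UMIs per library. CD45-negative barcodes numbered 516 in the combination library, 352 in the anti-PD-1 library, 373 in PBS 1 and 175 in PBS 2, with medians of 61304, 43273, 66361 and 74608 UMIs in that order. CD45-negative barcodes were shallowest after anti-PD-1. The UMI minimum left out 450, 3497, 569 and 1092 barcodes with at most 1 Ptprc UMI in the combination, anti-PD-1, PBS 1 and PBS 2 libraries. It thus left out the most in the anti-PD-1 library, and the effect on collagen levels was not tested. The anti-PD-1 library also shared 1255 barcode sequences with PBS 1 and 1778 with PBS 2, and the PBS libraries shared 673, whereas the combination library shared 21, 23 and 39 with PBS 1, PBS 2 and anti-PD-1. Of the CD45-negative barcodes, 1 of 516 in the combination library, 61 of 352 in the anti-PD-1 library, 349 of 373 in PBS 1 and 156 of 175 in PBS 2 had a sequence also listed in another library. No barcode was CD45-negative in both libraries of any pair, and 0 CD45-negative barcodes had more UMIs in another library. The gate was checked against markers. The 8 epithelial markers, among them Krt8, Krt18 and Epcam, summed to 0.731 CPM (counts scaled to a library total of 1e6) in the combination library, 1.46 in the anti-PD-1 library and 1.36 and 0.781 in PBS, with 3, 4, 2 and 5 of the 8 at 0. The 8 fibroblast markers summed to 1473 CPM in the combination library, 1229 in the anti-PD-1 library and 1817 and 1491 in PBS, and 1234, 1005, 1581 and 1211 CPM of these came from Dcn (decorin, a proteoglycan that binds fibrils). These markers do not separate tumour cells from stroma, so no cell type is named.

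Of the 44 collagen genes, 31 had at least 10 UMIs in the CD45-negative barcodes of at least 1 library. The other 13 were under 10 UMIs in every library: Col4a3, Col6a4, Col6a5, Col9a1, Col9a2, Col10a1, Col11a1, Col11a2, Col13a1, Col14a1, Col19a1, Col22a1 and Col25a1. All members together gave 2768 CPM in the combination library, 2323 in the anti-PD-1 library and 3841 and 3750 in PBS 1 and PBS 2. Both treated libraries lay below both PBS libraries. CPM values below are scaled by TMM (trimmed mean of M-values) unless stated otherwise. Those given by cluster, those set side by side for barcode classes and the marker sums are unscaled. Levels of different genes are not ranked because they are not per length. In these sums over barcodes, fewer cells of a type and less RNA per cell cannot be told apart.

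Of the type I, III and V chains, which form fibrils, Col3a1, Col1a1, Col5a1 and Col5a2 had both treated values below both PBS values, while Col5a3 and Col1a2 overlapped. Col3a1, the chain of type III collagen, had 929 CPM in the combination library and 866 in the anti-PD-1 library, against 1643 in PBS 1 and 1479 in PBS 2. Col1a1, the main chain of type I collagen, had 13.0 CPM in the combination library and 10.7 in the anti-PD-1 library, against 28.8 and 18.7 in the PBS libraries. For both genes the treated and PBS libraries did not overlap, and the treated libraries lay close together. Col5a1, the main type V chain, had 120 CPM in the combination library and 99.2 in the anti-PD-1 library, against 183 and 188 in PBS. Col5a2, its partner chain, had 13.5 and 14.6 CPM in the combination and anti-PD-1 libraries, against 27.6 and 20.4 in PBS. Col5a3, the other type V chain, overlapped between the groups, with 101 and 84.6 CPM in the combination and anti-PD-1 libraries against 96.6 and 103 in PBS. In the last 500 bases of its transcript, Col5a1 shares 11% of its sequence with other genes, and whether this affects its counts was not tested.

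Col1a2 stood out by its low count beside Col1a1. It had 30 UMIs in the CD45-negative barcodes of the combination library, 18 in the anti-PD-1 library and 26 and 19 in PBS 1 and PBS 2, or 0.916, 1.20, 0.975 and 1.43 CPM. Over all barcodes, CD45-positive ones included, the libraries held 74, 57, 39 and 56 Col1a2 UMIs in the same order, and no barcode had more than 12. Barcodes with at least 3 Col1a2 UMIs numbered 5, 3, 3 and 6, of which 0, 0, 2 and 2 were CD45-negative. Unscaled, Dcn, also a fibroblast marker, was at 1005 CPM or more in the CD45-negative barcodes of every library.

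Type VI collagen was lower in treated libraries for the alpha1 and alpha2 chains. Col6a1 had 444 CPM in the combination library and 331 in the anti-PD-1 library, against 576 and 538 in PBS. Col6a2 had 289 CPM in the combination library and 285 in the anti-PD-1 library, against 406 and 396 in PBS. Col6a3, the larger chain that assembles with them, overlapped between groups, with 201 and 156 CPM in the combination and anti-PD-1 libraries against 179 and 167 in PBS. The basement membrane chain Col4a1 had 140 CPM in the combination library and 108 in the anti-PD-1 library, against 166 and 145 in PBS. Its partner Col4a2 had 99.4 and 73.1 CPM in the combination and anti-PD-1 libraries, against 102 and 84.8 in PBS, so its combination value lay within the PBS range. Col4a5, another type IV chain, lay between 18.7 and 23.4 CPM in all 4 libraries.

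The remaining collagens were not called against PBS in either treated library. Col8a1, a short-chain collagen of networks, had 210 CPM in the combination library and 196 in the anti-PD-1 library, against 177 and 227 in PBS. Col16a1, which associates with fibrils, had 107 and 103 CPM in the combination and anti-PD-1 libraries, against 117 and 128 in PBS. Col7a1, the collagen of anchoring fibrils, had 46.3 and 42.2 CPM in the combination and anti-PD-1 libraries, against 43.8 and 51.1 in PBS. The treated and PBS values did not overlap for Col16a1 and overlapped for Col8a1 and Col7a1. Col27a1, a fibrillar collagen of cartilage, had 18.6 and 15.9 CPM in the combination and anti-PD-1 libraries, against 21.2 and 21.4 in PBS. Col18a1, the source of endostatin, had 6.87 and 7.98 CPM in the combination and anti-PD-1 libraries, against 10.9 and 7.29 in PBS. Col4a4, Col6a6, Col9a3, Col12a1, Col13a1, Col15a1, Col17a1, Col20a1, Col23a1 and Col24a1 were tested at under 3 CPM in every library. Of these, Col4a4 had both treated values above both PBS values, with 1.80 and 2.79 CPM in the combination and anti-PD-1 libraries against 1.46 and 1.28 in PBS, a log2 fold change of 1.01 (SE 0.45, adjusted p = 0.204) for anti-PD-1 that did not pass. Col2a1, Col4a6, Col8a2, Col26a1 and Col28a1 reached 10 UMIs in some library but did not pass the filter on low counts. Of these, Col4a6 was highest in the combination library, with 15 UMIs from 5 barcodes.

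**Figure D1:**
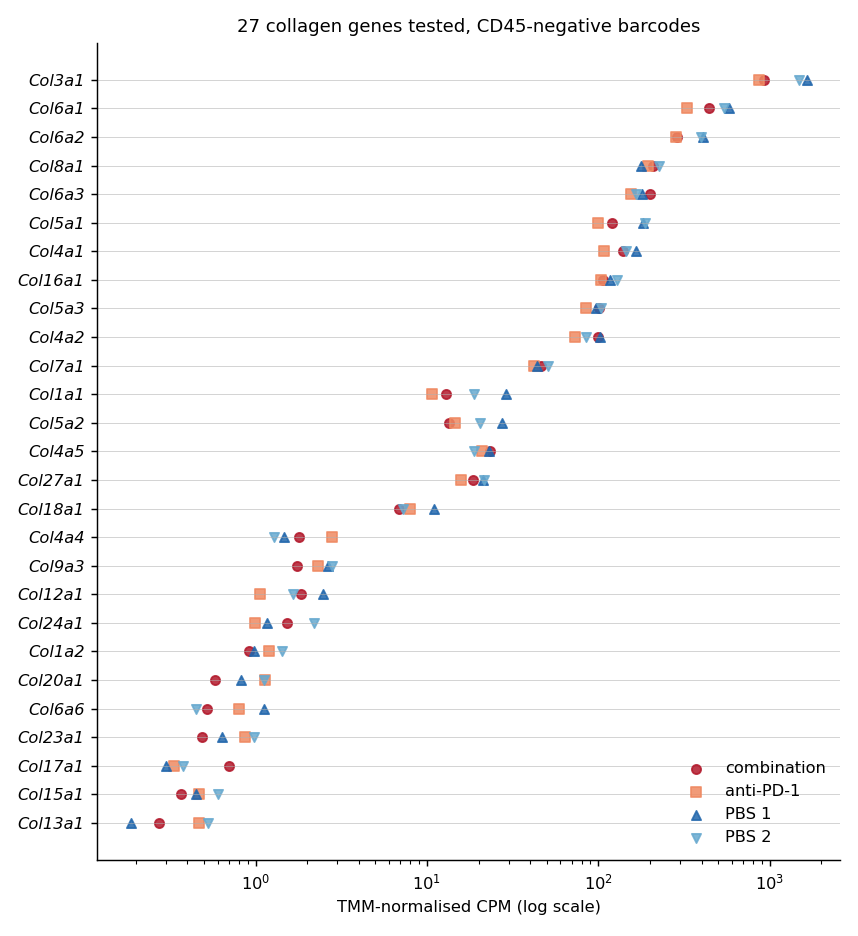
TMM-normalised CPM (log axis) of the 27 collagen genes that passed the filter on low counts, 1 point per library, in CD45-negative barcodes. Col3a1, Col6a1, Col6a2, Col5a1, Col5a2 and Col1a1 have both treated points left of both PBS points, while Col8a1, Col5a3, Col6a3 and Col7a1 overlap.

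The comparisons with PBS ask how each treatment went with collagen expression in CD45-negative barcodes. In the anti-PD-1 library, 7 of the 27 collagen genes tested were lower than in PBS and 0 were higher, where 2.56% of all 15308 genes were called lower and 2.08% higher. The log2 fold changes were -1.17 for Col1a1 (SE 0.25, adjusted p = 0.0231), -0.90 for Col5a1 (SE 0.13, adjusted p = 2.45e-07) and -0.85 for Col3a1 (SE 0.16, adjusted p = 0.00013). The other 4 were Col6a1 at -0.75 (SE 0.15), Col5a2 at -0.73 (SE 0.17), Col4a1 at -0.52 (SE 0.13) and Col6a2 at -0.49 (SE 0.14), with adjusted p of 0.000251, 0.00486, 0.00647 and 0.0231. The median log2 fold change was -0.22 over the 27 collagen genes and -0.016 over all genes. No filter on low counts left 3 calls (Col3a1, Col5a1 and Col6a1), and thinning the libraries to the same total left 4. Col1a1 lost its call in 4 alternatives (no filter, thinned sums, and the mitochondrial and immune transcript filters given further on), with adjusted p of 0.0516 to 0.265, at nearly the same fold change. DESeq2 called 5 of the 7 genes and gave no adjusted p for the other 2, Col1a1 and Col5a2.

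In the combination library, 4 collagen genes were lower than in PBS and 0 were higher, where 1.16% of all genes were called lower and 1.42% higher. Col5a2 had a log2 fold change of -0.85 (SE 0.16, adjusted p = 0.000323), Col3a1 of -0.75 (SE 0.16, adjusted p = 0.00111), Col5a1 of -0.63 (SE 0.13, adjusted p = 0.000492) and Col6a2 of -0.47 (SE 0.14, adjusted p = 0.0425). Col1a1, at -0.90 (SE 0.22, adjusted p = 0.0714), and Col6a1, at -0.33 (SE 0.15, adjusted p = 0.306), did not pass. The median was -0.24 over the 27 collagen genes and -0.012 over all genes. DESeq2 called 2 of these genes, thinned sums 2 and the fit without a filter 1 (Col5a1). Both comparisons share the PBS libraries. Leaving out PBS 1 or PBS 2 leaves no spread to test with, and Col1a1 then stood at -0.81 and -1.43 in the anti-PD-1 library, and Col3a1 at -0.78 and -0.93 in the anti-PD-1 library and at -0.67 and -0.82 in the combination library.

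Between the treated libraries, edgeR called 0 of 27 collagen genes in the combination library against the anti-PD-1 library, where 4.1% of all genes were called. At an unadjusted p under 0.05 edgeR listed Col4a1, Col4a2, Col6a1 and Col6a3, all higher in the combination library. DESeq2 also listed 4 and called 0 of the 10 for which it gave an adjusted p. The share of all genes at an unadjusted p under 0.05 is not given here, so these lists do not set collagen genes apart. Col4a2 was at 0.44 (SE 0.15, adjusted p = 0.0611). This comparison is of 2 libraries, not of conditions. Without any test, 10 of the 27 collagen genes had both treated libraries below both PBS libraries, where 18.7% of all genes did, and 1 (Col4a4) had both above, where 17.5% did.

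Genes that make, shape and bind collagen were given from lists. Of 19 tested biosynthesis genes (chaperones and hydroxylases of the procollagen chains), 1 was lower in the anti-PD-1 library than in PBS: Serpinh1, the collagen chaperone HSP47, at -0.70 (SE 0.14). In the combination library none was lower and 2 were higher than in PBS, P4ha2 at 0.60 (SE 0.16) and P4ha1 at 0.50 (SE 0.13), both prolyl hydroxylase subunits. Serpinh1 had 385 CPM in the combination library and 203 in the anti-PD-1 library, against 362 and 297 in PBS, so only the anti-PD-1 library stood below the others. Of 16 fibril partners, 4 were lower in the anti-PD-1 library (Postn, Eln, Ogn and Fn1) and 4 in the combination library (Eln, Mfap4, Bgn and Ogn), and 0 were higher in either. Some of these rest on few counts. Eln was at 0.244 and 0.266 CPM in the combination and anti-PD-1 libraries, against 2.29 and 0.902 in PBS. Postn was at 0.133 in the anti-PD-1 library, against 1.42 and 3.01 in PBS, and Mfap4 at 0.641 in the combination library, against 3.71 and 3.83. Ogn, a fibril-binding proteoglycan, had 26.7 and 26.8 CPM in the combination and anti-PD-1 libraries, against 61.9 and 60.8 in PBS, with log2 fold changes of -1.20 in each. Fn1, fibronectin, was at -0.76 (SE 0.16) in the anti-PD-1 library. Of 11 tested processing and crosslinking genes, 0 were called in the anti-PD-1 library and Bmp1, a procollagen C-proteinase, was lower in the combination library at -0.54 (SE 0.14).

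Collagen breakdown genes split. Of 11 tested, the inhibitor Timp1 was higher in the anti-PD-1 library, at 0.56 (SE 0.13), with no other call. In the combination library Timp1 (0.42, SE 0.12) and Timp3 (2.87, SE 0.79) were higher and the gelatinase Mmp2 was lower (-0.77, SE 0.13). Timp3 was at 1.43 CPM in the combination library and 0.0665 in the anti-PD-1 library, against 0.263 and 0.0751 in PBS. No gene of the 10 basement membrane partners or the 8 collagen receptors was called against PBS. Pdgfra, a fibroblast marker, was lower in both treated libraries, at -0.62 (SE 0.14) in the combination library and -0.63 (SE 0.14) in the anti-PD-1 library, as the 1 call among 8 fibroblast markers in each. Between the treated libraries, 3 biosynthesis genes were higher in the combination library (Serpinh1 0.93, P4ha1 0.84 and P3h3 0.48).

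Other values moved with the anti-PD-1 library. The 6 macrophage markers summed to 21.1 CPM in the combination library and 47.9 in the anti-PD-1 library, against 18.4 and 13.2 in PBS, and 4 of 5 tested were higher in the anti-PD-1 library than in PBS. The 5 T cell markers summed to 9.25 CPM in the combination library and 12.3 in the anti-PD-1 library, against 5.93 and 5.15 in PBS. Barcodes at 15% mitochondrial UMIs or more were 16 of 516 in the combination library and 45 of 352 in the anti-PD-1 library, against 13 of 373 and 9 of 175 in PBS. Dropping those barcodes left 6 collagen calls for anti-PD-1 and 3 for the combination. Dropping barcodes with over 0.1% immune transcripts gave the same counts. It took out only 2, 4, 1 and 0 barcodes in the combination, anti-PD-1, PBS 1 and PBS 2 libraries, so it is a weak check. Dropping the immune-marked cluster 6 and the mitochondrial cluster 7 described below gave 9 and 5. Their part in the remaining difference was not tested.

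Barcodes were also split by the share of UMIs from Col1a1, Col1a2 and Col3a1 together. The median share was 0.0421% in the combination library and 0.0435% in the anti-PD-1 library, against 0.120% in PBS 1 and 0.0777% in PBS 2. A barcode at 0.5% or more was called collagen-high. The highest shares were 1.08, 0.806, 1.26 and 1.38% in the combination, anti-PD-1, PBS 1 and PBS 2 libraries. The shares formed a continuous range rather than separate groups: 73, 44, 107 and 42 barcodes lay between 0.25% and 1%. The nearest barcodes inside the limit were at 0.503, 0.502, 0.501 and 0.508%, and the nearest outside at 0.497, 0.453, 0.499 and 0.462%.

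Collagen-high barcodes were a smaller share of the CD45-negative barcodes in the treated libraries. They were 17 of 516 in the combination library, or 3.29% (exact Clopper-Pearson 95% interval 1.93 to 5.22%), and 5 of 352 in the anti-PD-1 library, or 1.42% (0.463 to 3.28%). In PBS they were 37 of 373, or 9.92% (7.08 to 13.4%), and 15 of 175, or 8.57% (4.88 to 13.7%). The intervals cover counting error only, and with 1 library per treatment there is no test. The anti-PD-1 interval lay below both PBS intervals, whereas that of the combination overlapped the interval of PBS 2. At a limit of 0.2% the shares were 18.0% in the combination library and 17.3% in the anti-PD-1 library, against 34.9 and 29.1% in PBS. After thinning each barcode to 10000 UMIs, 16, 3, 37 and 15 barcodes were collagen-high in the combination, anti-PD-1, PBS 1 and PBS 2 libraries.

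**Figure D2:**
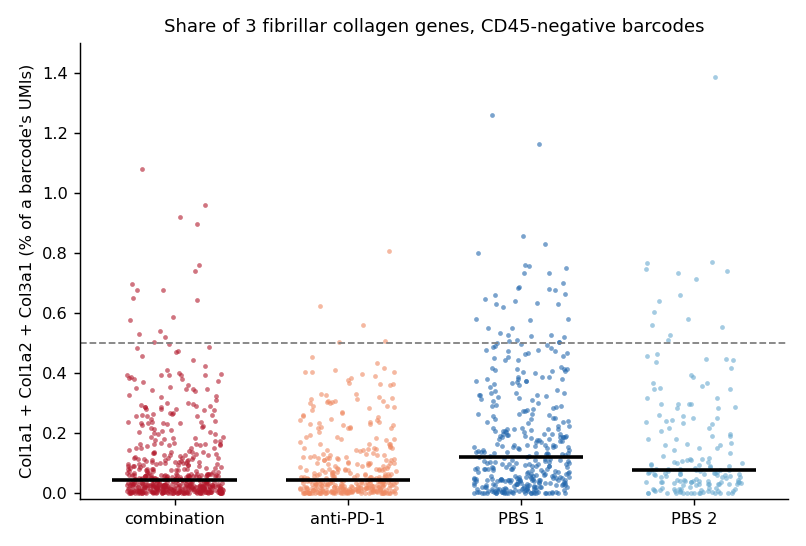
Share of a barcode's UMIs from Col1a1, Col1a2 and Col3a1, 1 point per CD45-negative barcode, by library, with black bars at the medians and a dashed line at 0.5%. The points form a continuum with 17 and 5 barcodes at or above the line in the combination and anti-PD-1 libraries, against 37 and 15 in PBS.

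Collagen-high barcodes carried more of other collagens than collagen-low barcodes of the same library. The limit itself set the values of Col3a1 and Col1a1, whose log2 fold changes were 2.55 and 3.88 and are a description only. Of the 17 other collagen genes tested, 12 were higher and 0 were lower, where 13.9% of 11985 genes were called higher and 22.6% lower. The median log2 fold change was 0.58 over the 17 and -0.075 over all genes. The filter passed 17 of the 41 collagen genes that did not set the limit, so the count does not speak for the rest.

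The type VI chains Col6a2 and Col6a1 differed in every library. In collagen-high barcodes Col6a1 was at 1348, 604, 1257 and 1165 CPM in the combination, anti-PD-1, PBS 1 and PBS 2 libraries, against 438, 347, 552 and 512 in collagen-low barcodes. The log2 fold change was 1.23 (SE 0.13, adjusted p = 2.58e-12) for Col6a1 and 1.24 (SE 0.13, adjusted p = 1.69e-12) for Col6a2. Col6a3 differed less, at 0.45 (SE 0.13, adjusted p = 0.00352). Of the type V chains, Col5a1 was at 327, 181, 356 and 296 CPM in collagen-high barcodes, against 119, 104, 179 and 188 in collagen-low ones, in the same order of libraries. Its log2 fold change was 1.0 (SE 0.14), while Col5a3, at 0.37 (SE 0.26, adjusted p = 0.325), did not pass. Col5a3 was at 111, 298, 122 and 104 CPM in collagen-high barcodes and 105, 87.4, 100.1 and 108 in collagen-low ones, and it passed without PBS 1, without PBS 2 or without the combination library. The type IV chains Col4a5 (0.95, SE 0.21), Col4a1 (0.74, SE 0.13) and Col4a2 (0.61, SE 0.14) were higher. Col18a1 (1.03, SE 0.28), Col8a1 (0.58, SE 0.13), Col27a1 (0.53, SE 0.21) and Col16a1 (0.38, SE 0.13) were also higher. Col4a4, Col7a1, Col9a3 and Col12a1 did not pass, with log2 fold changes of 0.20, 0.17, -0.57 and -0.0015. Col27a1 lost its call without PBS 1 (adjusted p = 0.318) or without PBS 2 (adjusted p = 0.114), and Col18a1 without the combination library (adjusted p = 0.0613). DESeq2 lost Col27a1 and Col4a5 and gained Col28a1. The fit without a filter lost Col16a1 and Col27a1 and gained Col6a4. A limit of 0.2% lost Col8a1 and gained Col12a1 and Col9a3. Col4a5 was at 0 CPM in collagen-high barcodes of the anti-PD-1 library, against 22.5 in collagen-low ones.

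Col5a2 differed between the sets through few barcodes. It was at 37.1, 118, 88.1 and 59.2 CPM in collagen-high barcodes of the combination, anti-PD-1, PBS 1 and PBS 2 libraries, against 13.4, 14.5, 24.0 and 18.1 in collagen-low ones, a log2 fold change of 1.86 (SE 0.18, adjusted p = 1.21e-12). Of the 279 Col5a2 UMIs in the 74 collagen-high barcodes, 191 (68.5%) came from 10 barcodes of 1 cluster, cluster 4, and 11 (3.94%) from the 51 barcodes of cluster 2. For Col6a1 the shares were the other way, with 12.2% of 4820 UMIs in cluster 4 and 72.9% in cluster 2. Within cluster 4 Col5a2 was at 412 CPM in collagen-high and 63.2 CPM in collagen-low barcodes, and within cluster 2 at 4.15 and 3.44 CPM. Its higher level in collagen-high barcodes was thus not shared by most of them.

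**Figure D3:**
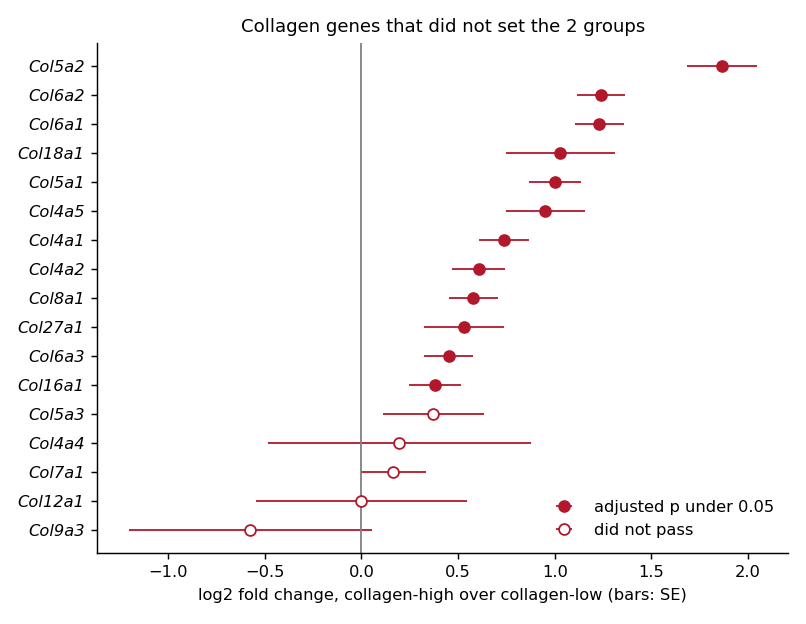
Log2 fold change of 17 collagen genes in collagen-high over collagen-low barcodes with standard errors, fitted with the library as a block, leaving out the genes that set the groups. Filled points passed an adjusted p of 0.05: 12 lie right of 0, led by Col5a2 at 1.86, and the 5 open points did not pass.

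Genes of collagen handling also differed between the sets. Of 19 biosynthesis genes tested, 9 were higher in collagen-high barcodes and 0 lower, among them the prolyl isomerase Fkbp14 (1.28, SE 0.29) and the prolyl hydroxylase P3h2 (1.10, SE 0.17). Serpinh1 did not pass, at 0.012 (SE 0.13, adjusted p = 0.955), and was at 433, 165, 376 and 333 CPM in collagen-high barcodes of the combination, anti-PD-1, PBS 1 and PBS 2 libraries, against 399, 214, 382 and 309 in collagen-low ones. Of 7 processing genes, Bmp1 (1.45, SE 0.17), Loxl3 and Pcolce were higher, and Pcolce2 (-3.00, SE 0.33) and Loxl2 (-1.80, SE 0.47) were lower. Of 13 fibril partners, 7 were higher, led by Mfap4 (3.01), Bgn (2.85), Ogn (2.84) and Fn1 (1.95), and Thbs1 (-3.18) and Fbln1 (-0.97) were lower. Of 8 breakdown genes, 6 were higher, led by Mmp19 (1.73), Mmp2 (1.54), Mmp14 (1.45) and Mmp9 (1.35), and Timp1 was lower (-0.68). The collagen receptors moved apart, Ddr1 higher (1.04, SE 0.27) and Ddr2 lower (-0.42, SE 0.13). Of 6 basement membrane partners, Lamb2 (0.84) and Hspg2 (0.65) were higher. Not all genes named here differed in 1 direction. In the anti-PD-1 library, with 5 collagen-high barcodes, P3h2, Loxl3, Pcolce, Mfap4 and Mmp19 went the other way. Mfap4 was there at 0 CPM in collagen-high and 2.34 in collagen-low barcodes, and Mmp19 at 0 and 4.25. Lamb2 went the other way in the combination library.

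Over all non-collagen genes above 50 CPM, those among the largest differences were H19, Ogn, Mannr, Rab30, Matn2, F830016B08Rik, Islr, Fn1 and Ghr on the higher side. Those on the lower side were Cenpa, Ube2c, Nav2, Cenpf, Cdca8, Hist1h2ap, Birc5, Prc1, Cenpe and Hist1h2ae. H19, an imprinted non-coding RNA of fetal tissue, was at 340, 62.8, 284 and 223 CPM in collagen-high barcodes of the combination, anti-PD-1, PBS 1 and PBS 2 libraries, against 12.5, 33.1, 40.5 and 27.7 in collagen-low ones. All but Nav2 on the lower side act in mitosis or encode histones. Cenpa, a centromeric histone, was at 1.24, 7.85, 2.50 and 0 CPM in collagen-high barcodes, against 72.8, 50.4, 67.9 and 50.6 in collagen-low ones, in the same order of libraries, at a log2 fold change of -5.16 (SE 0.33).

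Of 6 fibroblast markers tested, Dpt (1.95), Pdgfra (1.52), Dcn (1.46) and Pdpn (0.62) were called higher in collagen-high barcodes and Fbln1 lower, while Lum did not pass (3.50, SE 0.99, adjusted p = 0.0795). Dpt had few counts and did not differ in 1 direction. Its collagen-high barcodes were at 32.2, 0, 17.5 and 3.06 CPM in the combination, anti-PD-1, PBS 1 and PBS 2 libraries. Collagen-low ones were at 5.11, 4.60, 3.31 and 3.41. Dcn was at 3740, 2245, 4031 and 3369 CPM in collagen-high barcodes of the combination, anti-PD-1, PBS 1 and PBS 2 libraries, against 1222, 1099, 1453 and 1041 in collagen-low ones, so collagen-low barcodes held it as well. Pdgfrb, a receptor of pericytes and fibroblasts, was higher (1.27, SE 0.21), and Cspg4, Msln and Sox9 were lower (-0.60, -1.78 and -0.94). All 8 epithelial markers were at 0 in collagen-high barcodes of the combination, anti-PD-1 and PBS 2 libraries, and 7 of 8 in PBS 1. Collagen-high barcodes had fewer UMIs, with medians of 42877, 25192, 51455 and 56475 in the combination, anti-PD-1, PBS 1 and PBS 2 libraries, against 61650, 43652, 67980 and 77199 in collagen-low ones. Their mitochondrial medians were 6.87, 13.6, 7.14 and 6.99%, against 5.50, 6.23, 5.64 and 5.57%. The part of cell cycle, depth and mitochondrial share in these differences was not tested further. In sums thinned to 1 depth, 8 of the 12 called genes could still be tested, 6 kept their call (Col4a1, Col5a1, Col6a1, Col6a2, Col6a3 and Col8a1), and Col5a3 passed as well.

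Within the collagen-high barcodes alone, edgeR called 0 of 16 collagen genes in each comparison between libraries, where 0.0547% of 9138 genes were called for anti-PD-1 over PBS and 0.0438% in each of the comparisons of the combination with PBS and with anti-PD-1. At an unadjusted p under 0.05 it listed 4 for anti-PD-1 over PBS, 1 for the combination over PBS and 4 for the combination over anti-PD-1, and DESeq2 listed 3, 0 and 3 and called 0. The shares of all genes above are at the adjusted threshold and are no measure for these unadjusted counts. The anti-PD-1 side rests on 5 barcodes, and the standard errors of its log2 fold changes over PBS ran from 0.33 to 2.42, against 0.26 to 0.48 for the combination over PBS. Within the collagen-low barcodes, 5 of 27 were lower in the anti-PD-1 library than in PBS (Col3a1, Col4a1, Col5a1, Col5a2 and Col6a1), where 3.02% of 15304 genes were called lower. In the combination library 3 were lower (Col3a1, Col5a1 and Col5a2), where 1.34% were. Col5a1 had a log2 fold change of -0.61 (SE 0.13, adjusted p = 0.000223) in the combination library and -0.83 (SE 0.13, adjusted p = 9.68e-08) in the anti-PD-1 library. Because Col3a1 sets the limit, its values within either set are bounded by it: with the limit at 0.2% its calls in collagen-low barcodes were lost (adjusted p = 0.319 for anti-PD-1 and 0.211 for the combination). Col4a2 was higher in the combination than in the anti-PD-1 library, where 3.38% of genes were called higher, and lost this call in 6 alternatives (adjusted p of 0.0921 to 0.36).

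Clustering of the 1416 CD45-negative barcodes without any collagen gene gave 8 clusters of 302, 263, 260, 252, 134, 90, 75 and 40 barcodes. No cluster had 3 defining markers among its leading genes, so they are numbered. Cluster 2, led by Ptn, Ogn, H19 and Aspn, held 51 of the 74 collagen-high barcodes, and its median share of the 3 genes was 0.307%. Cluster 8, led by the interferon-induced Ifit3, Ifit1 and Rsad2, held 9 of 40 barcodes as collagen-high and had a median of 0.230%. Cluster 4, led by Robo2 and Csmd3, held 10. Cluster 1 (histone genes) held 3, cluster 7 (a median of 18.9% mitochondrial UMIs) held 1, and clusters 3 (Cox6a2, Ero1l), 5 (mitotic genes) and 6 (Mcpt2, Cd74, a median of 16110 UMIs) held 0. These values describe clusters and carry no test.

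The collagens did not share 1 pattern over the clusters. Col3a1 was at 3210 CPM in cluster 2, 2666 in cluster 8 and 1361 in cluster 4, and at 240 to 626 CPM in the other clusters. Col1a1 followed it in clusters 2 and 8, at 70.7 and 55.5 CPM, and was at 2.06 to 12.7 CPM elsewhere. Col5a2 instead was at 75 CPM in cluster 4, 45.5 in cluster 8 and 31.6 in cluster 7, and at 3.56 in cluster 2. Its cluster 7 value was at 78.4 CPM in the combination library, against 16.3, 10.8 and 3.29 in anti-PD-1, PBS 1 and PBS 2. The genes that neighbour each other on chromosome 1, Col3a1 and Col5a2, thus differed in where they were counted.

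Within clusters, how often both treated libraries lay below both PBS libraries differed between members. It was 7 of 8 clusters for Col6a1, 6 for Col3a1, Col5a1 and Col6a2, 4 for Col16a1, 3 for Col4a1 and Col5a2, 2 for Col1a1 and Col5a3, 1 for Col4a2 and Col8a1, and 0 for Col6a3. Of the 8394 genes at 10 CPM or more, 5.44 to 28.9% lay so in a given cluster, and 0.703% did in at least 6 clusters, as did 4 of the 15 collagen genes among them. Clusters share their libraries, so these counts are not independent and carry no test. In cluster 2, Col3a1 was at 2717 CPM in the combination library and 2314 in the anti-PD-1 library, against 3757 and 3716 in PBS. In cluster 4 it was at 883 and 871 CPM in the combination and anti-PD-1 libraries, against 2309 and 1247 in PBS, and Col5a2 was at 49.6 and 52.6, against 117 and 80.3 in PBS. In cluster 1, Col3a1 was at 432 and 437 CPM in the combination and anti-PD-1 libraries, against 769 and 788 in PBS. Cluster 2 was also a smaller share of the treated libraries, 17.1% in the combination and 13.4% in the anti-PD-1 library, against 24.1 and 21.7% in PBS. Lower levels within clusters and a smaller cluster 2 thus stood side by side, and their parts in the summed difference were not separated.

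**Figure D4:**
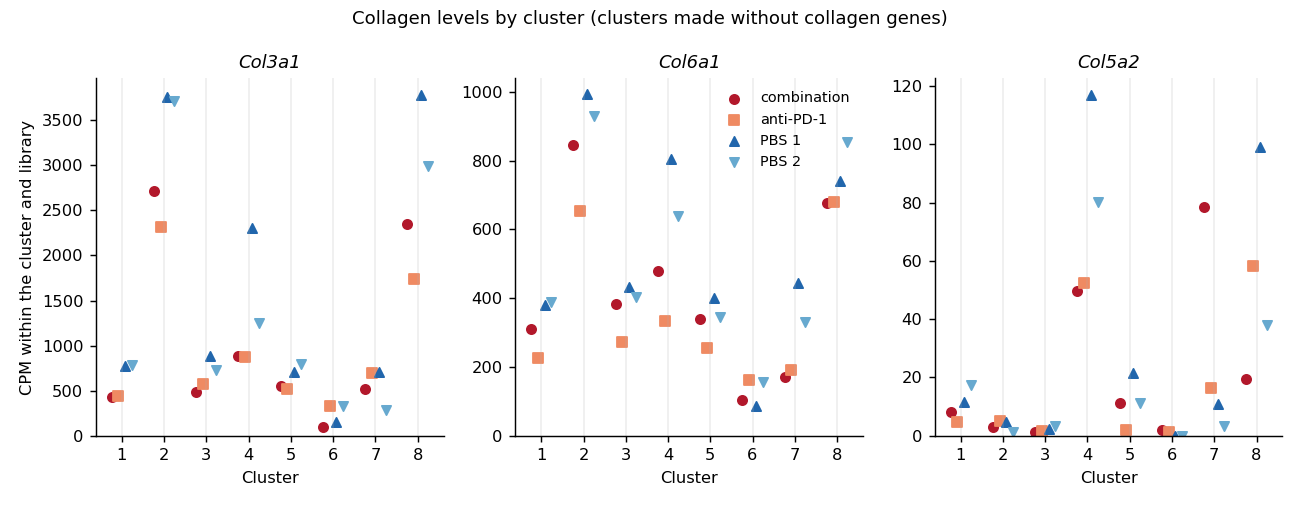
CPM of Col3a1, Col6a1 and Col5a2 by cluster, 1 point per library, in clusters made without collagen genes. Col3a1 is high in clusters 2 and 8 and Col5a2 in clusters 4 and 8, but in the combination library Col5a2 is highest in cluster 7 (78.4). In cluster 4 both treated points of Col5a2 (49.6 and 52.6) lie below both PBS points (117 and 80.3).

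Across single barcodes thinned to 10000 UMIs, collagens differed in how they went together. Spearman's rho between Col6a1 and Col6a2 was 0.65, 0.59, 0.69 and 0.73 in the combination (516 barcodes), anti-PD-1 (352), PBS 1 (373) and PBS 2 (175) libraries. Between Col3a1 and Col6a1 it was 0.62, 0.54, 0.59 and 0.63, and between Col3a1 and Col5a1 0.46, 0.39, 0.43 and 0.55. The divergent pair Col4a1 and Col4a2 had 0.24, 0.28, 0.27 and 0.37, and the neighbours Col3a1 and Col5a2 had 0.18, 0.19, 0.20 and 0.14. Col3a1 and Col8a1 had 0.053, 0.10, 0.019 and 0.13. Barcodes of a library share its depth and its free RNA, Col5a2 had under 0.4 UMIs per thinned barcode on average, and low counts pull rho towards 0.

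Col14a1, a fibril-associated collagen, was counted in another class of barcodes. Macrophage barcodes (at least 10 UMIs of C1qa, C1qb and C1qc, at least 2 of Ptprc and 0 of Cd3d, Cd3e and Cd3g) numbered 382 in the combination library, 477 in the anti-PD-1 library, 424 in PBS 1 and 308 in PBS 2. Unscaled, Col14a1 was there at 41.5 CPM in the combination library and 34.0 in the anti-PD-1 library, against 57.8 and 63.3 in PBS. A Col14a1 UMI was present in 25.4% of macrophage barcodes in the combination library and 21.0% in the anti-PD-1 library, against 38.9 and 38.6% in PBS, at medians of 14044, 9854, 17019 and 20548 UMIs in that order. Both treated libraries were below both PBS libraries and also shallower, and in sums thinned to 1 depth the log2 fold changes below became -0.42 and -0.69. In CD45-negative barcodes, which were several times deeper, Col14a1 was at 0.183, 0.318, 0.0377 and 0.234 CPM in the combination, anti-PD-1, PBS 1 and PBS 2 libraries, and in T cell barcodes at 0.308, 0.494, 0.724 and 0.640 CPM. Of 249, 226, 303 and 286 barcodes with a Col14a1 UMI, 86.7, 71.2, 85.8 and 82.5% held at least 10 C1q UMIs, against 7.80, 7.24, 10.1 and 8.51% of all barcodes. Col15a1, a basement membrane zone collagen, was also higher in macrophage than in CD45-negative barcodes, at a lower level. Unscaled, it was at 2.74 CPM in macrophage barcodes of the combination library and 2.12 in the anti-PD-1 library, against 5.39 and 6.47 in PBS, compared with 0.365 to 0.624 in CD45-negative barcodes.

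Col14a1 in macrophage barcodes was tested as well. EdgeR called 0 of 23 collagen genes there in any comparison between libraries, where 0.11% of 13672 genes were called for anti-PD-1 over PBS, 0.168% for the combination over PBS and 0.0219% for the combination over anti-PD-1. At an unadjusted p under 0.05 it listed 3 for anti-PD-1 over PBS, 4 for the combination over PBS and 3 for the combination over anti-PD-1, and DESeq2 listed 1, 0 and 1. The shares of all genes are at the adjusted threshold and are no measure for these unadjusted counts. DESeq2 gave an adjusted p for 0, 0 and 22 collagen genes in these comparisons and called 0 of them, so against PBS it made no call either way. The log2 fold change of Col14a1 was -0.52 (SE 0.14, adjusted p = 0.243) in the combination library and -0.74 (SE 0.15, adjusted p = 0.111) in the anti-PD-1 library against PBS. Without the filter on low counts both passed (adjusted p = 0.0453 and 0.000454), and the anti-PD-1 value also passed after barcodes with a Col3a1 UMI were left out (adjusted p = 0.0295). Col8a1 passed without the filter as well, for anti-PD-1 over PBS and for the combination over anti-PD-1. With the filter its log2 fold changes there were 1.11 (SE 0.27, adjusted p = 0.137) and -1.71 (SE 0.34, adjusted p = 0.323), at 7.08 CPM in the combination library and 23.3 in the anti-PD-1 library, against 12.7 and 8.66 in PBS. Col15a1 was at -1.08 (SE 0.44, adjusted p = 0.438) in the combination library and -1.38 (SE 0.48, adjusted p = 0.239) in the anti-PD-1 library against PBS, and did not pass. In the anti-PD-1 library 28 of 477 macrophage barcodes had more UMIs under the same sequence in another library. Without such barcodes the log2 fold change of Col14a1 for anti-PD-1 over PBS was -0.77 (adjusted p = 0.0894).

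Other collagens were also counted in immune barcodes. Col4a4, Col8a2, Col10a1, Col11a2, Col13a1, Col15a1, Col20a1 and Col23a1 were higher in T cell barcodes of every library than in CD45-negative barcodes of any, at 0.691 to 4.32 CPM unscaled, and so were Col20a1 and Col23a1 in macrophage barcodes. These levels are low, and the share of all genes lying so is not given here. Col4a4 differed narrowly, with 2.70 CPM in the lowest T cell library against 2.67 in the highest CD45-negative one. Unscaled, Col3a1 was at 75.5 CPM in T cell barcodes of the combination library and 41.5 in the anti-PD-1 library, against 64.4 and 51.3 in PBS, compared with 828 to 1654 in CD45-negative barcodes. It was present in 4.57, 3.39, 5.21 and 3.28% of T cell barcodes in the combination, anti-PD-1, PBS 1 and PBS 2 libraries, at medians of 7345, 5312, 7609 and 8758 UMIs. These UMIs were concentrated in few barcodes: those with 10 Col3a1 UMIs or more numbered 46, 22, 17 and 11 in the same order of libraries, and held 93.6, 88.1, 92.1 and 94.7% of the Col3a1 UMIs of T cell barcodes. The median barcode with any had 1. The ratio of Col3a1 to Col6a1 UMIs in T cell barcodes was 2.13, 1.84, 2.82 and 2.71, against 2.09, 2.62, 2.85 and 2.75 in CD45-negative barcodes, close to it in 3 libraries and lower in the anti-PD-1 library. In monocyte barcodes Col3a1 ranged from 5.46 CPM in the combination library to 367 CPM in PBS 1, where 917 UMIs came from 20 barcodes. Doublets were not removed.

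**Figure D5:**
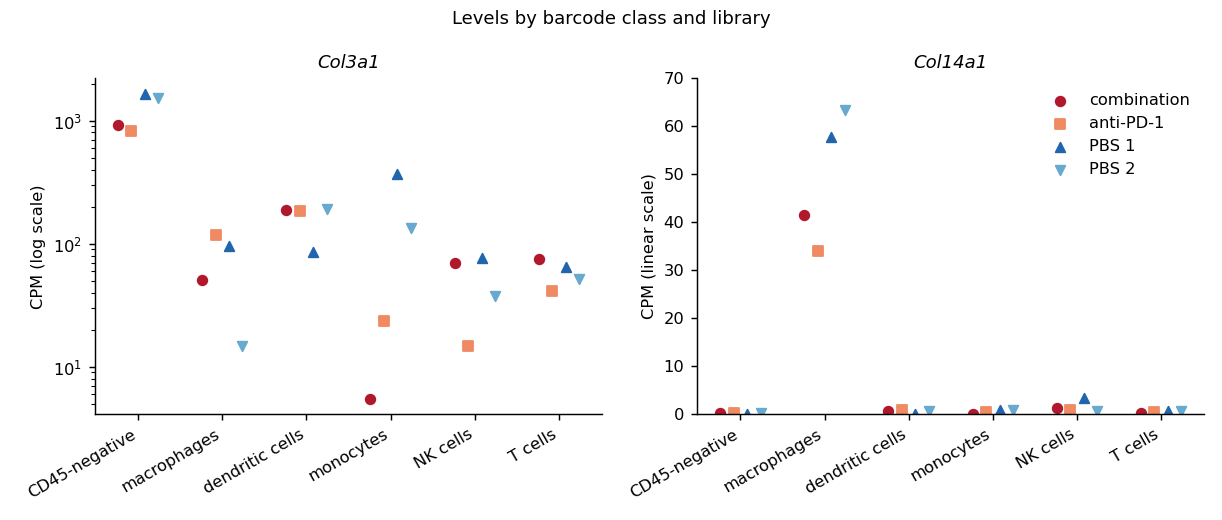
CPM of Col3a1 (log axis) and Col14a1 (linear axis) by barcode class, 1 point per library. Col3a1 is highest in CD45-negative barcodes (828 to 1654 CPM), whereas Col14a1 is highest in macrophage barcodes (34.0 to 63.3 CPM), where both treated libraries lie below both PBS libraries.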

How the data were processed

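The deposited matrices hold raw UMI counts per gene and barcode, and the authors wrote them with Cell Ranger 7.1.0, per the file headers. Cell Ranger 3.0.2 and the mm10 build stand in the submitters' processing notes. No label or header used here says if intronic reads were counted. The collagen genes, gene lists and limits were chosen with earlier results of these data known, and the limit of 0.5% is a choice on a continuous range. Clusters 6 and 7, the immune-marked and mitochondrial ones, were left out, as were barcodes copied between libraries and macrophage barcodes with Col3a1 UMIs, in alternatives chosen after seeing the data.

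Counts were summed per library over CD45-negative, collagen-high, collagen-low or macrophage barcodes and compared by edgeR 4.0.16 (R 4.3.3) with TMM scaling, filterByExpr at a minimum count of 10, a quasi-likelihood fit by group (robust, all 4 libraries together), and Benjamini-Hochberg adjustment over all genes tested at a threshold of 0.05. In comparisons between treatments the PBS pair alone gives a residual degree of freedom, so the spread of a treated library is taken to equal that of PBS. The fit also drew each gene's spread towards a level shared by all genes. The median prior degrees of freedom were 155 in all CD45-negative barcodes, 18.9 in collagen-high and 6.19 in macrophage ones. They were infinite in collagen-low barcodes, and in macrophage barcodes without the filter. Each SE given is the absolute log2 fold change divided by the square root of the F statistic. With few degrees of freedom, a change of several SE can thus fail to pass. Collagen-high and collagen-low sums, 8 in all, were fitted with the library as a block. Their p-values rest on how the difference between the sets varied over the 4 libraries, not on the spread between PBS libraries. That variation was also drawn towards a level shared by all genes (median prior degrees of freedom of 60.6). A gene could thus pass though single libraries went the other way, as Dpt did. DESeq2 1.42.0 was an alternative. The biological coefficient of variation was 9.75% in all CD45-negative barcodes and 16.9% in collagen-high ones. Only 2 fits were tried on simulated data: the combination over PBS in all CD45-negative barcodes, and collagen-high over collagen-low. The simulated spread was smaller than the fitted one and the outcome is not given here, so this speaks for no comparison. Depth was 12810881 to 32851088 UMIs in the CD45-negative sums.

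Clusters of CD45-negative barcodes used scanpy 1.11.5 with leidenalg 0.10.2 on 2000 variable genes without collagen genes (30 components, 20 neighbours, resolution 0.8). Thinning drew 10000 UMIs per barcode. Doublets were not called. Other genes are named as up to 4 called genes of each list with the largest change in each direction, and as the 10 non-collagen genes with the largest change in each direction above 50 CPM in the higher set of every library, of which 1 is not reported here. A fold change of a gene at 0 in a library is a fitted value.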

Additional observations from a re-analysis of the deposited data

How the results depend on the processing

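The counts of collagen genes called changed with several settings, and 1 direction reversed. For anti-PD-1 over PBS in all CD45-negative barcodes (7 calls), the fit without a filter gave 3 and thinned sums 4. For the combination over PBS (4 calls), DESeq2 gave 2, no filter 1 and thinned sums 2. For the combination over anti-PD-1 (0 calls), leaving out clusters 6 and 7 gave 1. In collagen-high barcodes, anti-PD-1 over PBS gave 1 call without a filter and 1 with a limit on all collagen genes, and the combination over anti-PD-1 gave 1 under the mitochondrial filter, each against 0. In collagen-low barcodes, anti-PD-1 over PBS (5 calls) gave 3 with DESeq2, which gave no adjusted p for Col5a2, and 2 with the limit on all collagen genes, and the combination over PBS (3 calls) gave 1 with the limit at 0.2%. There, the combination over anti-PD-1 (1 call) gave 0 with DESeq2, thinned sums, without clusters 6 and 7, and with the limit at 0.2%, at 1% or on all collagen genes. The collagen-high over collagen-low count of 12 became 7 in thinned sums (6 of them among the 12), where 2270 genes were tested, and 3 with the limit at 1%, where Col5a2 turned to -11.0 (adjusted p = 0.359) with 4 collagen-high barcodes in 3 libraries. It was again 12 without each library, of which 11 or 12 were the same genes. The collagen-high share minus the PBS mean was -5.95 points in the combination and -7.83 in the anti-PD-1 library. It became -14.0 and -14.7 with the limit at 0.2%, -0.360 and -0.554 at 1%, and -13.1 and -16.5 with all collagen genes. Without PBS 1 or PBS 2 it ranged from -5.28 to -6.63 and from -7.15 to -8.50. The cause was not tested unless named. At 1% no anti-PD-1 barcode was collagen-high, so library comparisons with anti-PD-1 in that set have no value. No paired analysis was possible because each treated group has 1 library and shares fewer than 2 replicate numbers with PBS. In macrophage barcodes (0 calls), anti-PD-1 over PBS gave 2 calls without a filter and 1 without Col3a1 UMIs, and the combination gave 1 over PBS and 1 over anti-PD-1 without a filter. Depth limits the anti-PD-1 collagen-high sums most.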
